A study of Mus musculus with 4 samples.

Results

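The genes described here encode the enzymes of glycolysis and its regulators, the hypoxia-inducible factor (HIF) subunits and oxygen sensors, and a set of HIF target genes, 35 genes chosen by symbol from the 53379 genes with an FPKM value. All 35 symbols were found, and 34 of them passed the filter on low expression (a mean above 1 FPKM in either group), as did 14739 genes in all. FPKM counts fragments scaled to the length of the transcript and to the mapped fragments of the library, so levels can be compared between genes per length.

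RNA was sequenced from group 3 innate lymphoid cells (ILC3s), lymphocytes of mucosal tissue that lack rearranged antigen receptors, sorted from the lamina propria of the small intestine. The Brg1-sufficient ILC3s (2 libraries) came from Thy1.2 Rag1-/- Smarca4 f/f donors and the Brg1-deficient ILC3s (2 libraries) from Thy1.1 Thy1.2 Rag1-/- Smarca4 f/f donors that also carried a Cre transgene. Bone marrow cells of both donors were mixed in equal number and given to Rag2-/- Il2rg-/- recipients after sublethal irradiation, and the cells were sorted 6 to 7 weeks later as CD45 low, Thy1.2 high and either Thy1.1- or Thy1.1+. Both donors carried the floxed Smarca4 alleles, which encode Brg1, the ATPase of the SWI/SNF chromatin remodeling complex. They lacked Rag1, and with it T and B cells. The Thy1 allele went with the genotype, so that the effects of the 2 cannot be told apart. The age and sex of the mice were not given in the labels.

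In glycolysis, hexokinases trap glucose as glucose 6-phosphate, phosphofructokinase commits it to breakdown, and the steps that follow yield pyruvate. Lactate dehydrogenase reduces pyruvate to lactate, and pyruvate dehydrogenase turns it into acetyl-CoA in the mitochondria. When oxygen is low, prolyl hydroxylases no longer mark the HIF α subunits for destruction, and HIF binds DNA at sites with the core ACGTG or GCGTG and raises transcription of glycolytic enzymes, glucose transporters and genes of angiogenesis and mitophagy. The HIF pathway is controlled largely at the level of protein stability, which RNA-seq does not measure, and the intestinal mucosa is a tissue of low and varying oxygen.

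Smarca4 itself stood at 17.1 and 16.7 FPKM in controls, the Brg1-sufficient libraries, against 9.98 and 9.03 FPKM in Brg1-deficient ILC3s. Its level was thus 56.2% of that in controls, with no overlap between the groups, and the adjusted p was 0.153 (limma, Benjamini-Hochberg over 14739 genes). All 10 ILC3 marker genes were expressed above the filter, and their summed FPKM was 9959 and 12289 in controls against 23107 and 12315 in Brg1-deficient ILC3s, without overlap. Markers of other lymphocytes moved with genotype. The summed FPKM of 8 ILC2 genes was 97.5 to 182 in controls and 35.5 to 41.1 in Brg1-deficient ILC3s, and that of 7 T cell genes was 53.3 to 99.9 and 29.4 to 31.4. Of all genes tested, 6.47% were lower and 6.12% higher in Brg1-deficient ILC3s at an unadjusted p under 0.05. In the ILC2 list, 5 of 7 genes tested were lower by that threshold and 1 was higher, and in the T cell list 4 of 5 were lower and none was higher. In the list of ILC1 and NK cell genes 4 of 7 were lower and 1 was higher, and the sums, 182 and 356 against 487 and 274 FPKM, overlapped. The higher gene, Gzma, was at 50.8 and 103 against 397 and 218 FPKM. Ncr1 (31.3 and 35.5 against 5.37 and 6.02 FPKM) and Ifng (22.8 and 37.3 against 3.42 and 3.22 FPKM) were lower at an adjusted p under 0.05. The study describes NKp46+ ILC3s as expressing T-bet and IFN-γ. It reports fewer of them among Brg1-deficient small intestinal ILC3s of such chimeras. None of the genes of these lists was at 0 in all libraries. Their part in the results below was not tested. In bulk samples, fewer cells of a type and less RNA per cell cannot be told apart. Both donors lacked T and B cells, so the T cell list does not stand for T cell numbers here.

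Glycolytic transcripts were abundant in both genotypes and most of them differed little between them. Of 34 members tested, 1 passed at an adjusted p under 0.05 and fell in Brg1-deficient ILC3s (Hk3), against 0.224% of all genes tested, and 0 rose, against 0.0814%. At an unadjusted p under 0.05, 6 members were lower (Hk3, Aldoa, Ldhb, Hif1a, Vegfa and Pfkp), against 6.47% of all genes, and 1 was higher (Ero1l), against 6.12%. The values of the 2 genotypes did not overlap for 10 members that were lower and 7 that were higher among the 34 tested, and over all genes tested this held for 20.2% and 24.4%, or 44.6% in either direction. The median log2 fold change, on the log2(FPKM + 1) scale and Brg1-deficient minus Brg1-sufficient throughout, was -0.04 over the 34 members and 0.03 over all genes tested. For 1 gene, 2 libraries against 2 allow no exact permutation p (two-sided) smaller than 0.33, so p-values here are those of limma, which pools the spread across genes.

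**Figure D1:**
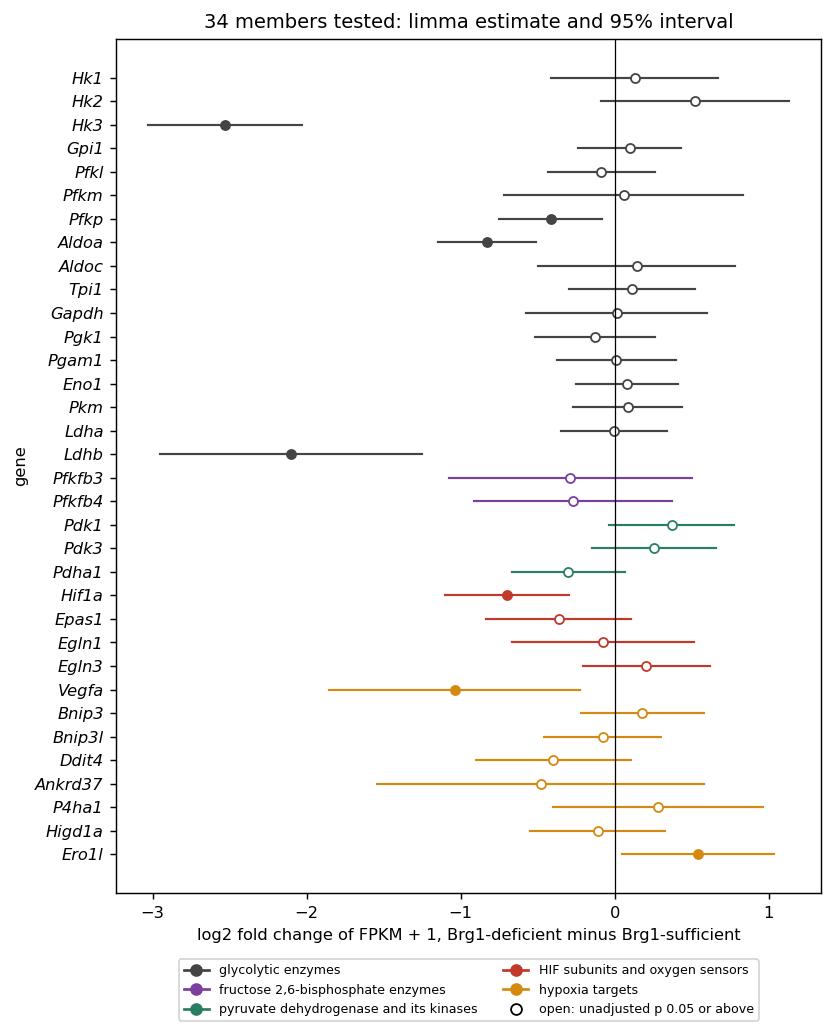
Estimated log2 fold change (x axis, FPKM + 1, Brg1-deficient minus Brg1-sufficient) for each of the 34 tested genes (y axis), with the 95% interval from limma as a line and the colour giving the role. Filled points have an unadjusted p under 0.05, 6 of them left of 0 and 1 (Ero1l) right of it, and the intervals of Hk3 and Ldhb lie farthest from 0.

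The DNA before the start sites was read for the HIF core words because the lower members include both Hif1a and genes known as HIF targets. Other HIF targets among the members were not lower. Ero1l was higher at an unadjusted p under 0.05, and Ldha and Pgk1 overlapped between the genotypes. RefSeq promoter windows on GRCm38.p6, 250 bases before to 50 after a transcript start, were at hand for 33 of the 35 genes and not for Epas1 and Bnip3l. ACGTG stood on either strand in at least 1 window of 23 of the 33 genes (69.7%), and GCGTG likewise in 23. Among the tested genes with a window, 29.2% held ACGTG and 55.3% GCGTG, against 21.8% and 35.2% of all genes with a window. Counted over windows instead of genes, 55.3% of the members' windows held ACGTG. Of all 32851 windows, which include those of genes not tested, 19.6% did. The members include a set chosen as HIF targets. The longer word CACGTG, the E-box that MYC and USF factors read, contains ACGTG on both strands and stood in 5 of the 33 genes. Of the 6 lower members 4 (66.7%) held ACGTG and 3 (50%) GCGTG, and of the 27 others with a window 19 (70.4%) held ACGTG and 20 (74.1%) GCGTG. Printed here, 5′ to 3′ on the strand of the gene, are 30 bases around 1 such word for the 4 lower members that held it, and for Ldha and Pgk1, well-known HIF targets whose levels overlapped between the genotypes. Capitals mark ACGTG, or CACGT where the word lies on the other strand. In the Hif1a and Ldha stretches the marked word lies within CACGTG, and the Ldha stretch ends in a further CACGT left in lower case.
Hk3, chr13:55021524-55021553, minus strand: actacattttgaCACGTtgcctagttcaac
Aldoa, chr7:126799363-126799392, minus strand: tgtggctcgagtCACGTcctagcggggcgg
Hif1a, chr12:73907721-73907750, plus strand: acacagacaagcACGTGagcggggcagctc
Vegfa, chr17:46025357-46025386, minus strand: ggagtgcgtgccCACGTcagagagcaacat
Ldha, chr7:46845745-46845774, plus strand: ggcccagcctacACGTGggttcccgcacgt
Pgk1, chrX:106186938-106186967, plus strand: gcgtcgtgcaggACGTGacaaatggaagta
Counted from the transcript start of the window, the word began at -156 in Hk3, -211 in Vegfa, -134 in Hif1a, -47 in Ldha and -150 in Pgk1, and in Aldoa at -126 or -202 depending on the start used. In GENCODE M21 the Hk3 and Pgk1 stretches lie outside annotated genes, those of Aldoa, Hif1a and Ldha in introns of longer transcripts of the same gene, and that of Vegfa in an exon with annotated coding sequence of Vegfa. A word match describes the sequence and is no measurement of binding, and Ldhb and Pfkp had no ACGTG in their windows.

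The first step of glycolysis carried the only member called. Hk3, a hexokinase isozyme best known from myeloid cells, was expressed at 27.9 and 21.6 FPKM in controls against only 3.46 and 3.41 FPKM in Brg1-deficient ILC3s. Both Brg1-deficient libraries lay far below both controls, at 13.9% of their mean, and the log2 fold change was -2.53 (SE 0.199, 95% interval -3.03 to -2.03, adjusted p = 0.0334). Leaving out any 1 library, which leaves 1 genotype with a lone library assumed to vary like the other genotype's, kept the direction, with log2 fold changes between -2.71 and -2.35, and lost the call. The adjusted p was 0.233 without Brg1-sufficient library 1, 0.131 without Brg1-sufficient library 2, 0.505 without Brg1-deficient library 1 and 0.542 without Brg1-deficient library 2, and no gene of the 14739 passed in these smaller fits, in which 509 to 1331 genes were lower and 521 to 1489 higher at an unadjusted p under 0.05. The call was also lost when genes of low FPKM were kept in the test (adjusted p = 0.0839, 44235 genes) and when limma was run without the trend (adjusted p = 0.124). Hk3 (ENSMUSG00000025877) lies on GRCm38 chr13:55005985-55021385, minus strand, had no near-identical copy among annotated transcripts, and shares 34 exon bases with Unc5a, which was at no more than 1.09 FPKM in any library.

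Markers of myeloid cells were also read, since Hk3 is known from such cells. The summed FPKM of 8 genes of macrophages, monocytes and dendritic cells was 109 and 239 in controls against 82.1 and 222 in Brg1-deficient ILC3s, with overlap. Most of it was Lyz2, the lysozyme gene of myeloid cells, at 84.1 and 203 FPKM in controls against 64.4 and 192 FPKM in Brg1-deficient ILC3s. Of this list 1 of 7 genes tested was lower and 1 higher at an unadjusted p under 0.05, against 6.47% and 6.12% of all genes tested. The lower gene was Adgre1, which encodes the macrophage antigen F4/80, at 5.76 and 6.00 FPKM in controls against 2.09 and 3.67 FPKM in Brg1-deficient ILC3s. The integrin gene Itgam was at 1.52 and 1.23 FPKM in controls against 0.39 and 0.38 FPKM in Brg1-deficient ILC3s. Both of these were lower without overlap, in the direction of Hk3, and over all genes tested 20.2% were lower without overlap. The unadjusted p of Itgam in limma was 0.076. Lyz2, Csf1r, Cd68, Itgax and Cd14 overlapped between the genotypes. Fcgr1 was the higher gene, at 0.60 and 0.80 FPKM in controls against 2.48 and 1.71 FPKM in Brg1-deficient ILC3s, without overlap. Its direction was opposite to that of Hk3. The 5 neutrophil genes summed to 3.44 and 4.94 FPKM in controls against 3.02 and 3.40 FPKM in Brg1-deficient ILC3s, without overlap, and none of the 3 tested had an unadjusted p under 0.05. Among them S100a8 (1.46 and 1.63 against 0.48 and 1.07 FPKM) and Retnlg (1.38 and 1.2 against 0.78 and 0.15 FPKM) were lower without overlap. Csf3r was higher without overlap (0.08 and 0.35 against 0.48 and 0.56 FPKM), and S100a9 overlapped (0.52 and 1.66 against 1.28 and 1.12 FPKM). The defining marker Ly6g was at 0 to 0.50 FPKM. The part of myeloid cells in the Hk3 difference was not tested.

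Hk2, the inducible hexokinase of activated lymphocytes and the most abundant of the 3 here, was at 112 and 81.6 FPKM in controls against 165 and 115 FPKM in Brg1-deficient ILC3s. The lowest Brg1-deficient library was just above the highest control, and the difference, 0.52 on the log2 scale (SE 0.243, 95% interval -0.09 to 1.13), did not pass (adjusted p = 0.467). Hk1, the broadly expressed isozyme, was at 24 and 35.3 FPKM in controls and 32.7 and 31.3 FPKM in Brg1-deficient ILC3s, with the groups overlapping. As shares of hexokinase FPKM within each library, Hk2 made up 68.3% and 58.9% in controls and 82.0% and 76.9% in Brg1-deficient ILC3s. Hk3 made up 17.0% and 15.6% in controls and 1.72% and 2.27% in Brg1-deficient ILC3s. The summed hexokinase level was 164 and 139 FPKM in controls and 201 and 150 FPKM in Brg1-deficient ILC3s, and these ranges overlapped. Shares within a family are given as a description, since they share the values tested gene by gene.

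**Figure D2:**
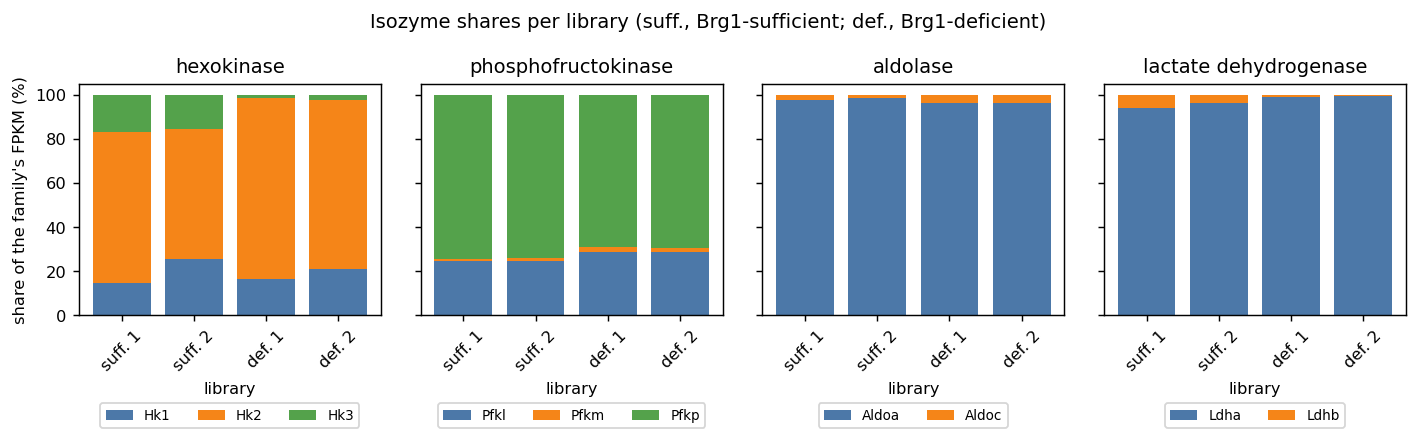
Share of each isozyme in the summed FPKM of its family (y axis, percent) in each of the 4 libraries (x axis), for hexokinase, phosphofructokinase, aldolase and lactate dehydrogenase. Hk3 makes up 15.6% to 17.0% of hexokinase in the Brg1-sufficient and 1.72% to 2.27% in the Brg1-deficient libraries, while Pfkp, Aldoa and Ldha are the main isozymes of their families in all 4.

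Gpi1, glucose 6-phosphate isomerase, was at 100 and 108 FPKM in controls and 115 and 109 FPKM in Brg1-deficient ILC3s. The groups did not overlap, by a margin much smaller than the distance between libraries of 1 genotype, and the log2 fold change was 0.10 (95% interval -0.24 to 0.43). Phosphofructokinase, the committing step, was mainly Pfkp, the platelet-type isozyme. Pfkp was at 186 and 203 FPKM in controls against 150 and 141 FPKM in Brg1-deficient ILC3s. Both Brg1-deficient libraries were below both controls, at 74.8% of their mean, with a log2 fold change of -0.42 (SE 0.133) that did not pass after adjustment (adjusted p = 0.304). The unadjusted p was no longer under 0.05 without Brg1-deficient library 1 (log2 fold change -0.46, adjusted p = 0.721) or without Brg1-deficient library 2 (-0.37, adjusted p = 0.762). Pitrm1, which shares 748 exon bases with Pfkp on the opposite strand, was at 20.3 and 27.4 FPKM in controls and 26.7 and 28.4 FPKM in Brg1-deficient ILC3s.

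Pfkl, the liver-type isozyme, was at 61.9 and 66.9 FPKM in controls and 62.6 and 58.5 FPKM in Brg1-deficient ILC3s. Pfkm, the muscle type, was at 2.51 and 4.26 FPKM in controls and 4.16 and 2.89 FPKM in Brg1-deficient ILC3s. Both overlapped between genotypes. Pfkp made up 74.3% and 74.0% of phosphofructokinase FPKM in controls and 69.2% and 69.7% in Brg1-deficient ILC3s, and Pfkl 24.7% and 24.4% against 28.9% and 28.9%. The summed level of the 3 isozymes was 251 and 274 FPKM in controls and 217 and 203 FPKM in Brg1-deficient ILC3s, with no overlap.

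Aldolase, which splits fructose 1,6-bisphosphate, showed the next clearest difference among the abundant enzymes. Aldoa was at 240 and 245 FPKM in controls against 139 and 133 FPKM in Brg1-deficient ILC3s. The libraries of each genotype lay close together and far from those of the other, and the Brg1-deficient level was 56.0% of the control level. The log2 fold change was -0.83 (SE 0.126, 95% interval -1.15 to -0.51), and the adjusted p of 0.0917 did not pass. Without 1 library at a time it stayed between -0.86 and -0.80. Aldoa (ENSMUSG00000030695, GRCm38 chr7:126795234-126800751, minus strand) had 1 near-identical copy with 0.02% of its FPKM, and a second gene listed under the same symbol (ENSMUSG00000114515) was at 0.57 to 1.07 FPKM. Aldoc, the isozyme best known from brain, was at 5.87 and 3.73 FPKM in controls and 5.18 and 5.40 FPKM in Brg1-deficient ILC3s, with the groups overlapping.

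From triose phosphate to pyruvate, the abundant enzymes overlapped between the genotypes. Triose phosphate isomerase Tpi1 was at 108 and 134 FPKM in controls and 136 and 124 FPKM in Brg1-deficient ILC3s. Gapdh, which oxidizes glyceraldehyde 3-phosphate, was at 126 and 176 FPKM in controls and 174 and 129 FPKM in Brg1-deficient ILC3s, so that its spread within each genotype was larger than the difference between them. Its log2 fold change was 0.01 with a 95% interval of -0.57 to 0.60. Enolase Eno1 was at 348 and 320 FPKM in controls and 343 and 361 FPKM in Brg1-deficient ILC3s, and pyruvate kinase Pkm, the most abundant member, at 409 and 442 and at 479 and 424 FPKM. Groups overlapped for each of these genes. The neuronal enolase Eno2 was at 0.92 and 0.10 FPKM in controls and 0.00 and 0.05 FPKM in Brg1-deficient ILC3s and was the 1 member below the filter. Its values did not overlap, all of them under 1 FPKM.

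Phosphoglycerate kinase Pgk1 was at 51.8 to 64.6 FPKM and phosphoglycerate mutase Pgam1 at 68.8 to 83.0 FPKM over the 4 libraries, with log2 fold changes of -0.13 and 0.01. Several of these genes have near-identical copies (at least 95% identity over at least 200 bases) to which reads may be assigned, 127 copies of Gapdh among them, 6 of which had a mean above 1 FPKM. The copies' FPKM came to 19.0% of that of Gapdh, 15.8% for Pgk1, 16.6% for Pgam1 and 22.6% for Eno1, so the levels of these 4 genes are uncertain by that much. Higd1a was the other member with copies above 10% of its own level (27.1%).

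**Figure D3:**
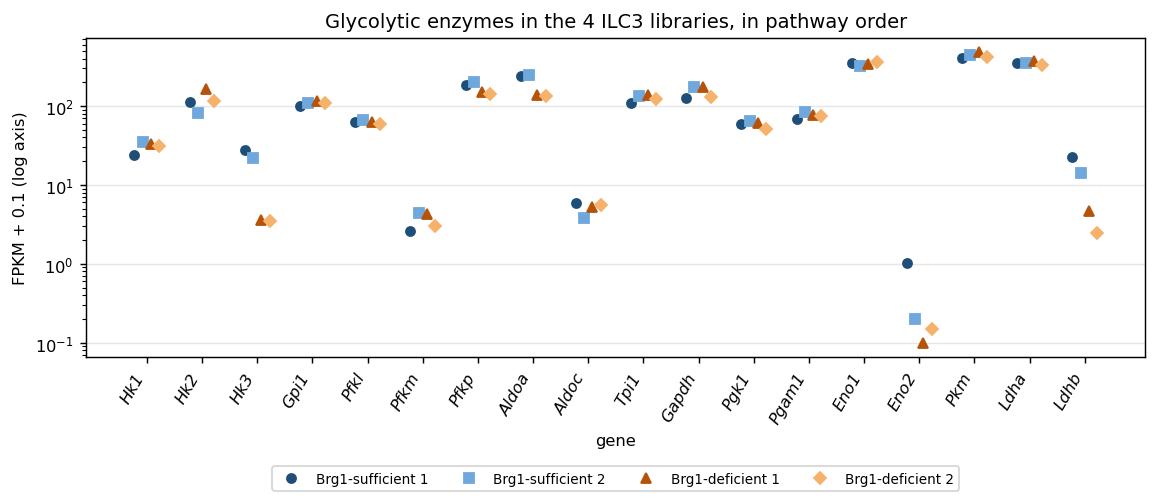
FPKM plus 0.1 (y axis, log axis) of the 18 glycolytic enzyme genes in pathway order (x axis), 1 point for each of the 4 libraries. The Brg1-deficient points sit apart and below for Hk3, Pfkp, Aldoa and Ldhb, and the points of both genotypes mix for Tpi1, Gapdh, Pgk1, Pgam1, Eno1, Pkm and Ldha.

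The last step divided into an abundant isozyme at overlapping levels and a minor one that was lower. Ldha, which favours lactate formation, was at 353 and 348 FPKM in controls and 372 and 327 FPKM in Brg1-deficient ILC3s. The groups overlapped, and the 95% interval of the log2 fold change (-0.01) ran from -0.35 to 0.34. Ldhb, which favours the return of lactate to pyruvate, was at 22.2 and 14.0 FPKM in controls against 4.59 and 2.39 FPKM in Brg1-deficient ILC3s. Each Brg1-deficient library was below each control, and the mean was 19.3% of that of controls. The log2 fold change was -2.10 (SE 0.339, 95% interval -2.95 to -1.25) and lay between -2.46 and -1.74 with 1 library left out, but the adjusted p of 0.0995 did not pass. Ldhb (ENSMUSG00000030246, GRCm38 chr6:142490249-142507957, minus strand) had 1 near-identical copy, listed at 0 in all libraries. Its share of lactate dehydrogenase FPKM was 5.92% and 3.88% in controls and 1.22% and 0.73% in Brg1-deficient ILC3s.

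Over the 17 glycolytic enzymes tested, 4 were lower at an unadjusted p under 0.05 and none was higher, against 6.47% and 6.12% of all genes tested. Their median log2 fold change was 0.01. Summed over all 18, the enzymes took 0.33% and 0.344% of all FPKM in controls and 0.340% and 0.307% in Brg1-deficient ILC3s. These sums overlapped between genotypes.

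The regulators of flux that sit beside the pathway showed smaller differences, none with an unadjusted p under 0.05. Pfkfb3, which makes the phosphofructokinase activator fructose 2,6-bisphosphate, was at 26.4 and 26.3 FPKM in controls and 29.7 and 15.3 FPKM in Brg1-deficient ILC3s. The Brg1-deficient libraries lay on either side of the controls. Without Brg1-deficient library 1 its log2 fold change was -0.75 and its unadjusted p under 0.05 (adjusted p = 0.673), in a fit where the spread comes from the controls, which differed little. Pfkfb4 was lowly expressed, at 2.10 to 3.33 FPKM, and its log2 fold change was -0.27.

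The 2 pyruvate dehydrogenase kinases among the members, which switch off pyruvate dehydrogenase, were both somewhat higher in Brg1-deficient ILC3s. Pdk1 was at 15.5 and 15.7 FPKM in controls and 22.0 and 19.0 FPKM in Brg1-deficient ILC3s, and Pdk3 at 11.9 and 12.5 and at 15.2 and 14.3 FPKM. Neither overlapped between genotypes, and their log2 fold changes, 0.37 (adjusted p = 0.437) and 0.26 (adjusted p = 0.582), did not pass. Pdha1, the catalytic subunit that these kinases phosphorylate, was at 47.1 and 45.2 FPKM in controls and 39.7 and 35 FPKM in Brg1-deficient ILC3s, also without overlap (log2 fold change -0.30, adjusted p = 0.485).

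Among the HIF genes, Hif1a, the oxygen-regulated subunit of HIF-1, was at 47.6 and 40.8 FPKM in controls against 28.2 and 25.4 FPKM in Brg1-deficient ILC3s. Both Brg1-deficient libraries were below both controls, at 60.7% of their mean. The log2 fold change was -0.70 (SE 0.160, 95% interval -1.10 to -0.30), and the adjusted p of 0.180 did not pass. Without Brg1-deficient library 2 the log2 fold change was -0.62 and the unadjusted p no longer under 0.05 (adjusted p = 0.713). Hif1a (ENSMUSG00000021109, GRCm38 chr12:73901375-73947530, plus strand) shares 148 exon bases with Gm49321 on the same strand, which was at 16.1 and 9.65 FPKM in controls and 12.2 and 9.52 FPKM in Brg1-deficient ILC3s, so a part of the reads could be assigned to either gene.

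Epas1, which encodes the HIF-2 α subunit, was at 38.7 and 30.2 FPKM in controls and 28.4 and 24.4 FPKM in Brg1-deficient ILC3s, lower without overlap, but the difference (log2 fold change -0.36, 95% interval -0.84 to 0.11) did not pass. Epas1 is also known from endothelium. The endothelial marker Cdh5 was at no more than 0.29 FPKM and the list's sum, 64.1 to 90.2 FPKM, was nearly all Pecam1 and overlapped between genotypes. The prolyl hydroxylase gene Egln1 was at 5.04 and 3.77 FPKM in controls and 3.84 and 4.36 FPKM in Brg1-deficient ILC3s. Egln3, a prolyl hydroxylase that is itself a HIF target, was at 33.2 and 27.9 FPKM in controls and 37.4 and 33.4 FPKM in Brg1-deficient ILC3s. Its groups did not overlap, by a narrow margin, and those of Egln1 did.

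Of the 8 HIF target genes outside glycolysis, 1 was lower and 1 higher at an unadjusted p under 0.05, against 6.47% and 6.12% of all genes tested. Vegfa, the angiogenic growth factor, was at 11.97 and 6.36 FPKM in controls and 4.25 and 3.30 FPKM in Brg1-deficient ILC3s. Both Brg1-deficient libraries were below both controls, and the controls differed from each other by more than the means of the genotypes did. The log2 fold change was -1.04 (SE 0.324, adjusted p = 0.290). Its unadjusted p was not under 0.05 without Brg1-sufficient library 1 (log2 fold change -0.63, adjusted p = 0.480), without Brg1-deficient library 1 (-1.18, adjusted p = 0.785) or without Brg1-deficient library 2 (-0.90, adjusted p = 0.827).

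Ero1l, the endoplasmic reticulum oxidase that helps proteins to form disulfide bonds, was at 193 and 138 FPKM in controls and 228 and 247 FPKM in Brg1-deficient ILC3s. Both Brg1-deficient libraries were above both controls, at 144% of their mean, opposite in direction to Vegfa. The log2 fold change was 0.54 (SE 0.196, adjusted p = 0.359). Its unadjusted p was not under 0.05 without Brg1-sufficient library 2 (log2 fold change 0.30, adjusted p = 0.301), without Brg1-deficient library 1 (0.60, adjusted p = 0.791) or without Brg1-deficient library 2 (0.48, adjusted p = 0.833).

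The mitophagy receptor genes differed little. Bnip3l was at 201 and 165 FPKM in controls and 173 and 173 FPKM in Brg1-deficient ILC3s, with overlap, and Bnip3 at 15.2 and 16.9 and at 17.8 and 18.8 FPKM, without overlap (log2 fold change 0.18). Ddit4, an inhibitor of mTORC1 that also answers to other stresses, was at 22.2 and 23.0 FPKM in controls and 14.4 and 19.8 FPKM in Brg1-deficient ILC3s, without overlap, and did not pass (log2 fold change -0.40, adjusted p = 0.498). The other 3 overlapped. They were Ankrd37 at 5.0 to 14.5 FPKM (log2 fold change -0.48), the collagen prolyl hydroxylase subunit P4ha1 at 14.2 to 25.1 FPKM (0.28) and Higd1a, a mitochondrial inner membrane protein, at 69.2 to 89.7 FPKM (-0.11).

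**Figure D4:**
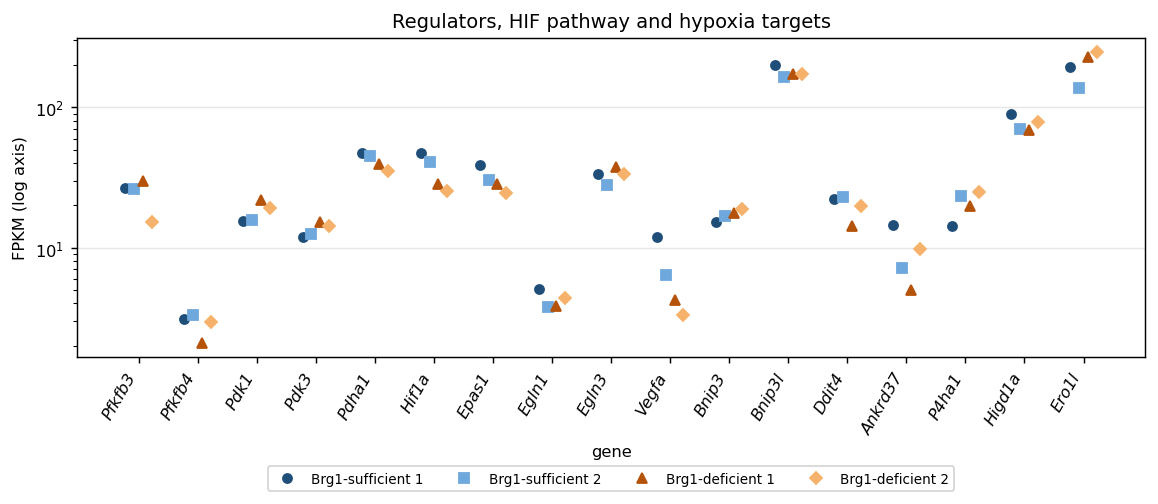
FPKM (y axis, log axis) of the 17 regulators, HIF pathway genes and hypoxia targets among the members (x axis), 1 point for each of the 4 libraries. Brg1-deficient points lie below the controls for Hif1a and Vegfa and above them for Ero1l and Pdk1.

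The rest of the pathway was read from 86 further genes in 6 lists, 67 of which passed the filter. None passed at an adjusted p under 0.05 in limma, 13 were lower and 6 higher at an unadjusted p under 0.05, and the median log2 fold change was -0.05. Of all genes tested, 6.47% were lower and 6.12% higher by the same unadjusted p, which is the background for the counts in each list. In the list of glucose, lactate and pyruvate transport, 3 of 10 genes tested were lower and 1 was higher by the unadjusted p, and the list's median was -0.38. Slc2a3, the high-affinity glucose transporter GLUT3, was at 30.1 and 23.6 FPKM in controls and 9.96 and 11.1 FPKM in Brg1-deficient ILC3s. Slc2a1, which encodes GLUT1, was at 33.8 and 29.6 FPKM in controls and 21.4 and 15.3 FPKM in Brg1-deficient ILC3s. Both glucose transporters were lower without overlap, with log2 fold changes of -1.27 (adjusted p = 0.0901) and -0.77 (adjusted p = 0.236). Slc16a1, the lactate transporter MCT1, was at 3.42 and 2.89 FPKM in controls and 0.86 and 0.54 FPKM in Brg1-deficient ILC3s (log2 fold change -1.29), and Slc2a8 was higher (0.71). The 2 most abundant genes of the list showed smaller differences, with log2 fold changes of 0.09 for Bsg, the chaperone of lactate transporters, and -0.25 for Mpc1 of the mitochondrial pyruvate carrier.

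Of the other glycolytic isozymes, 10 of 19 passed the filter. Adpgk, the ADP-dependent glucokinase, was the most abundant, at 39.4 and 45.1 FPKM in controls and 52.6 and 51.2 FPKM in Brg1-deficient ILC3s, and did not pass (log2 fold change 0.29). Galm, which interconverts the anomers of galactose and glucose, was at 17.7 and 17.0 FPKM in controls and 28.8 and 36.1 FPKM in Brg1-deficient ILC3s (log2 fold change 0.86, adjusted p = 0.142). Pgp, phosphoglycolate phosphatase, was lower (-0.52). In the pyruvate dehydrogenase list, Pdp1, the phosphatase that undoes the work of the kinases, was at 21.7 and 17.3 FPKM in controls and 9.61 and 9.16 FPKM in Brg1-deficient ILC3s (log2 fold change -0.97, adjusted p = 0.123). The other 7 genes tested there had an unadjusted p of 0.05 or above, including the abundant Pdhb (0.24) and Dld (-0.03).

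Among the other HIF pathway genes, 2 of 9 were lower at an unadjusted p under 0.05, Cited2, which competes with HIF for its coactivator (log2 fold change -0.67), and the ubiquitin ligase gene Siah2 (-0.76). The most abundant of that list, the HIF partner subunit Arnt and the ubiquitin ligase scaffold Cul2, had log2 fold changes of 0.00 and 0.01. Of 19 other hypoxia targets tested, 4 were lower and 3 higher. The transcription factor gene Bhlhe40 was at 1293 and 1121 FPKM in controls and 767 and 687 FPKM in Brg1-deficient ILC3s. Hilpda, a lipid droplet protein gene, was at 626 and 545 FPKM in controls and 346 and 216 FPKM in Brg1-deficient ILC3s. These were the most abundant genes of the list, and their log2 fold changes were -0.73 and -1.09. Ndrg1, a stress-responsive gene, was at 18.9 and 30.3 FPKM in controls and 6.24 and 5.52 FPKM in Brg1-deficient ILC3s (log2 fold change -1.86, adjusted p = 0.0819), and Cxcr4, a chemokine receptor gene, was lower as well (-0.75).

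The 3 higher genes of that list were 2 enzymes of collagen modification and a peptide hormone. P4ha2, a collagen prolyl hydroxylase subunit, was at 8.93 and 10.6 FPKM in controls and 19.6 and 20.7 FPKM in Brg1-deficient ILC3s (log2 fold change 0.98, adjusted p = 0.110). Plod2, a collagen lysyl hydroxylase, and Adm, adrenomedullin, had log2 fold changes of 0.71 and 0.62.

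In the branches that leave glycolysis, Phgdh, the first enzyme of serine synthesis, was at 7.75 and 7.12 FPKM in controls and 0.92 and 0.66 FPKM in Brg1-deficient ILC3s. Both Brg1-deficient libraries were near 1 FPKM, and the log2 fold change was -2.24 (SE 0.242, adjusted p = 0.0535), the lowest of the 67 pathway genes tested. Psph, the last enzyme of the same route, was at 17.0 and 18.3 FPKM in controls and 25.8 and 30.2 FPKM in Brg1-deficient ILC3s (log2 fold change 0.63). In the pentose phosphate pathway Pgls, 6-phosphogluconolactonase, was lower (-0.49), and the abundant Taldo1 (0.15) and Tkt (-0.18) did not pass.

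**Figure D5:**
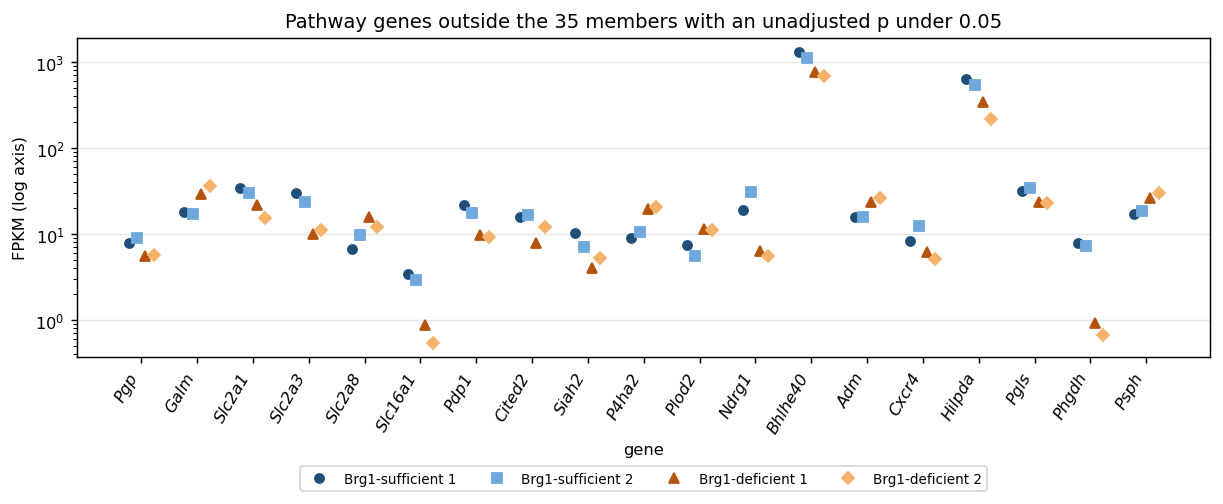
FPKM (y axis, log axis) of the 19 pathway genes outside the 35 members whose unadjusted limma p was under 0.05 (x axis), 1 point for each of the 4 libraries. Brg1-deficient points lie below the controls for 13 genes, among them Slc2a3, Ndrg1 and Phgdh, and above them for 6, among them Galm and P4ha2.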

How the data were processed

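The authors mapped reads to GRCm38.p5 with STAR 2.5, quantified genes with RSEM 1.2 on GENCODE annotation and deposited the genes' FPKM for each library. Once sorted, the deposited FPKM values were nearly the same in the 4 libraries (99.3% of the ranks with a mean above 1 FPKM differed by under 1%), so a step that equalizes the distributions had been applied, and shifts of all genes together are not visible. No counts were at hand, and without a known depth no counting interval is given. Libraries listed 30046 to 36929 genes above 0 FPKM. The count test of the study's methods, edgeR, could not be applied to FPKM.

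Genes whose mean exceeded 1 FPKM in at least 1 group were tested with limma 3.58.1 (eBayes with a trend, R 4.3.3) on log2(FPKM + 1), which understates changes of low genes, with Benjamini-Hochberg adjustment over all 14739. The study describes the libraries as biological duplicates. Whether each came from separate recipients is not given in the sources used here, so p-values measure the spread between these libraries. The members, the lists and the tests were chosen with earlier results of these data known. Values in every library are given for members above the filter with an unadjusted p under 0.05 or a mean over 100 FPKM, for isozyme families and for HIF subunits and sensors. Of the pathway lists, genes with an unadjusted p under 0.05 and the 2 most abundant of each list are named. Near-identical copies were found with blastn 2.17.0 among GENCODE M21 transcripts, and gene positions are from GENCODE M21. Promoter sequences are from RefSeq. The driver of the Cre transgene is not reported here. The fit was tested on simulated data. Alternatives were a replicate block, a pseudocount of 0.1, no filter, a filter at 5 FPKM, no trend, scaling to equal sums, quantile normalization and leaving out each library.

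Marker lists not mentioned with the results overlapped between genotypes in their summed FPKM, except those of B and plasma cells (9.94 and 10.9 FPKM in controls against 2.89 and 1.70 FPKM), where Cd79b alone passed the filter, and of erythroid cells (91.4 and 141 FPKM in controls against 49.2 and 86.5 FPKM). The sums over the 4 libraries were 7.76 to 9.38 for epithelium, 10.7 to 12.6 for stroma, 176 to 262 for proliferation and 14860 to 18411 for dissociation stress.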

Additional observations from a re-analysis of the deposited data

How the results depend on the processing

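As deposited, the libraries already had nearly equal sums and distributions, so scaling to equal sums and quantile normalization could change little and test little. Over these settings, a pseudocount of 0.1 and a filter at 5 FPKM, the adjusted p of Hk3 in limma was 0.0161 to 0.0346. The count of 1 member lower at an adjusted p under 0.05 (Hk3) was the same in these fits as in the main one. It was 0 without a filter and 0 without the trend, fits in which 0 of all genes passed in limma and in which 6 and 5 members were lower at an unadjusted p under 0.05, and 0 to 0 with 1 library left out. At an unadjusted p under 0.05, 3 to 6 members were lower and 0 to 1 higher with 1 library left out, with the fewest lower (3) without Brg1-deficient library 2. Without the trend 0 were higher. Of the pathway genes, 7 to 10 were lower and 2 to 7 higher with 1 library left out, and 2 (Slc2a3 and Ndrg1) were lower at an adjusted p under 0.05 with a filter at 5 FPKM. No tested value changed sign past its threshold, and the median of the members moved by less than the spread between libraries. So did the isozyme shares of Hk2, Hk3, Pfkp and Ldhb, but leaving out 1 of 2 libraries cannot move a share past that spread. That check therefore says nothing about how stable the shares are.

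Whether the replicate numbers pair the libraries is not stated in the sources used here, and they were treated as unpaired. The labels tie no number to a recipient or day, and the deviations of same-numbered libraries correlated at -0.00039 across genes. From library 1 to library 2, marker sums moved the same way in both genotypes for ILC2, myeloid, neutrophil, erythroid, proliferation and dissociation stress genes. They moved opposite ways for ILC3, ILC1 and NK, T cell, B and plasma cell, epithelial, endothelial and stromal genes. These values do not settle whether the libraries are pairs. With the replicate block, 3 members were lower at an adjusted p under 0.05 (Hk3, Ldhb and Aldoa), 2 were higher at an unadjusted p under 0.05 (Ero1l and Hk2), and 5 pathway genes were lower (Slc2a3, Ndrg1, Hilpda, Pdp1 and Phgdh) and 1 higher (P4ha2) at an adjusted p under 0.05. All genes called went from 33 lower and 12 higher to 248 and 150. With 2 libraries per group and no depth, a difference that missed the threshold is not shown to be absent.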
